A study of Rattus norvegicus with 4 samples.

Results

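Spliced long non-coding RNA (lncRNA) transcripts that stand alone at their locus were followed in primary cardiomyocytes of newborn rats. The set holds 1765 transcripts of the 17934 lncRNA transcripts listed in the 4 libraries, and it makes up 24.1% of the 7321 measured ones, those of at least 200 nt with a mean of at least 1 FPKM. FPKM is the read count scaled by transcript length and library total. A transcript was taken when it carried a NONCODE identifier, was listed in the normal glucose library at 24 h, was measured in this sense, had a genomic span more than 15 bases longer than its length, and shared no base of its span with another listed lncRNA transcript. Before the FPKM minimum 4697 transcripts met the rule, and the minimum kept 37.6% of them. The rule used no comparison between libraries, but it keeps out transcripts that the normal glucose table at 24 h does not list.

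lncRNAs are transcripts that are not translated into a long protein, and NONCODE is a catalogue that collects them from many sources. In a spliced transcript the introns are cut out of the primary RNA and the exons are joined, so the span on the genome is longer than the RNA. Some lncRNAs act in the nucleus on the chromatin of nearby genes and others act in the cytoplasm. At a locus with a single listed transcript a read cannot be divided among overlapping lncRNA isoforms, which is the usual difficulty in counting them. Reads of a protein-coding gene on the same span could not be separated here.

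The cells were primary cardiomyocytes of newborn Sprague-Dawley rats, at most 2 days of age, kept in 33 mmol/l glucose (high glucose) or in 5 mmol/l glucose with 28 mmol/l mannitol, a sugar alcohol added for equal osmolality (normal glucose). They were harvested at 24 h or 48 h. The series uses high glucose to bring about oxidative stress and apoptosis. The 2 media are written HG (high glucose) and NG (normal glucose) from here on. Each of the 4 groups had 1 library, so a difference between 2 libraries has no replicate check and carries no p-value. The labels do not say how many animals or cultures stand behind a library. The tables hold lncRNAs and no protein-coding genes, so the identity of the cells could not be checked against cardiomyocyte markers here. In such bulk RNA, fewer cells of a type and less RNA per cell cannot be told apart.

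The library totals recovered from the FPKM values lay between 11877876 and 15654183, and 1 read was worth between 0.0639 and 0.0842 CPM, a count scaled to that total without regard to length. The spliced lone transcripts together held 132131 reads in NG and 166465 in HG at 24 h, and 165295 and 138754 at 48 h. They took 15.6% of the lncRNA reads in both 24 h libraries (95% Wilson intervals 15.5 to 15.7 and 15.5 to 15.6). At 48 h they took 15.4% in NG (15.3 to 15.4) and 15.3% in HG (15.3 to 15.4). The share of lncRNA reads held by the set was thus nearly the same in the 4 libraries. The summed level was 11124 CPM in NG and 10634 CPM in HG at 24 h, and 11127 CPM and 9754 CPM at 48 h, so that the HG library at 48 h stood lowest. That library also stood apart over all measured transcripts, whose median log2 ratio of HG over NG at 48 h was -0.14. Across the 1765 transcripts, Spearman's rho of CPM between libraries was 0.800 to 0.814 for the 3 pairs with the HG library at 48 h and 0.858 to 0.862 for the other 3 pairs. These values describe levels across transcripts that share a library, and transcripts are not replicates.

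The transcripts were short, and most of the span was intron. Their median length was 682 nt (quartiles 439 and 919, range 209 to 6349) and their median span 3522 bases (range 338 to 396979). The bases of the span beyond the length, which are the intron bases, had a median of 2612 (quartiles 746 and 8407, range 18 to 394193) and made up a median of 78.7% of the span. In 381 transcripts they came to at least 10 kb. In 14 transcripts they came to fewer than 70, shorter than most introns, and such a gap need not be an intron. Spliced NONCODE transcripts whose locus held other listed transcripts (1889 measured) had a longer median length of 745 nt and a longer median span of 5397 bases. Single-block NONCODE transcripts (3304 measured), whose span matches their length, had a median length of 922.5 nt. The nearest listed lncRNA transcript lay a median of 6894 bases away from a lone one, within the same chromosome, and more than 10 kb away for 768 of them. The set was spread over all 20 autosomes and the X chromosome, from 39 transcripts on chromosome 11 to 192 on chromosome 1. Its share of the measured transcripts of a chromosome ran from 18.1% on chromosome 13 to 28.5% on chromosome 7.

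**Figure D1:**
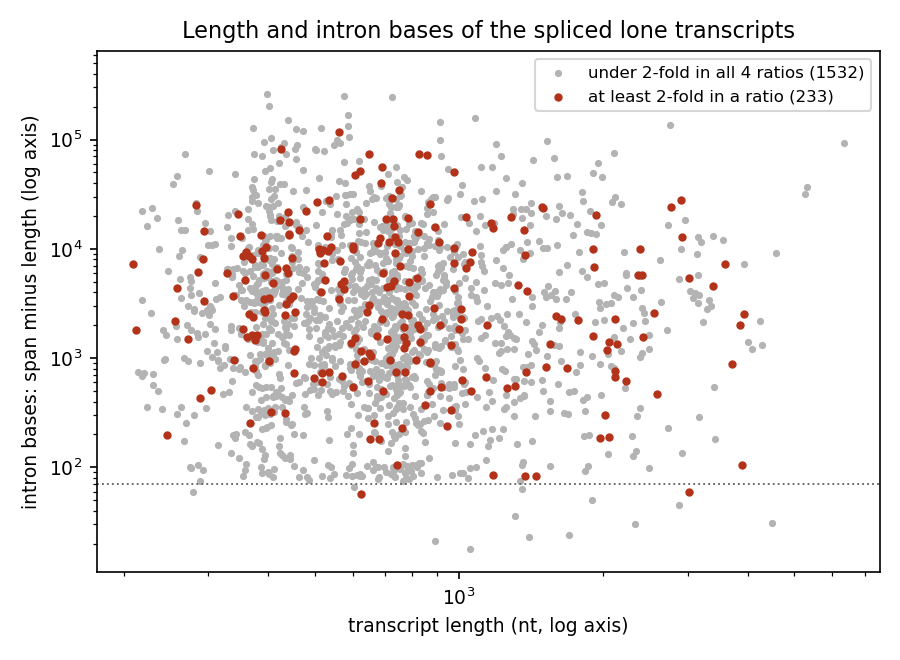
Transcript length in nt (x axis, log scale) against intron bases, the span minus the length (y axis, log scale), for the 1765 spliced lone transcripts. Red points are the 233 transcripts (13.2%) that differed at least 2-fold in at least 1 of the 4 ratios between libraries. They lie among the others over most of the range of length and intron bases. The like share over all measured transcripts is not given here, so 13.2% is no trait of the set. The dotted line marks 70 intron bases, with 14 transcripts below it.

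Most of these transcripts were present at a low level in every library. The median of the mean level was 2.47 FPKM, against 2.86 FPKM over all measured transcripts, and the median of the mean count was 23.5 reads (quartiles 13.25 and 57.75). 1235 of the 1765 reached 1 FPKM in all 4 libraries, 309 in 3, 187 in 2 and 34 in 1. All but 22 were listed in all 4 libraries. Those not listed numbered 4 in HG at 24 h, 10 in NG at 48 h and 13 in HG at 48 h. The rule required a row in NG at 24 h, so none could be missing there, and these counts cannot be read as a loss from that library. Of all 17934 transcripts, without an FPKM minimum, 16715 were listed in NG and 17110 in HG at 24 h. At 48 h 17210 were listed in NG and 16762 in HG. Just inside the minimum, NONRATT004848.2 and NONRATT029166.2 had a mean of 1.00 FPKM each. Just outside it, NONRATT002929.2 and NONRATT005493.2 had means of 0.999 FPKM each.

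A few transcripts held a large share of the reads. NONRATT017935.2 (chromosome 3, 6539099 to 6581345 in build rn6, 5305 nt) had 9332 reads in NG and 10292 in HG at 24 h, and 10550 and 6890 at 48 h. Alone it took 6.19% of the summed level of the set, and the 10 transcripts with the most reads took 19.9%. Its levels were 786 and 657 CPM at 24 h and 710 and 484 CPM at 48 h, lowest in HG at 48 h. NONRATT026609.2 (chromosome 7, 23543124 to 23548539, 4007 nt) came next in reads, with 299 and 294 CPM in NG and HG at 24 h and 395 and 305 CPM at 48 h. Its highest library was NG at 48 h, and the other 3 lay close together. Per length, the most abundant was NONRATT016627.2 (chromosome 2, 193863237 to 193868647, 504 nt), with 503 and 425 FPKM at 24 h and 540 and 330 FPKM at 48 h. It was lower in HG at both times, while NONRATT015286.2 (chromosome 2, 143674623 to 143687635, 810 nt) was higher in HG at both.

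NONRATT015286.2 is the second of the set by FPKM and lies more than 10 kb from any other listed lncRNA, at 205063 bases. It had 230 FPKM in NG and 297 in HG at 24 h, and 201 FPKM and 320 FPKM at 48 h, so both HG libraries stood above both NG libraries. The level was 1.29-fold higher in HG at 24 h (95% counting interval 1.23 to 1.36) and 1.59-fold higher at 48 h (1.51 to 1.67). In edgeR's fit over both times its log2 change was 0.52, with an unadjusted p of 0.0168 and an adjusted p of 0.882, so the difference did not pass the test. NONRATT029988.2 (chromosome 9, 52157031 to 52238737, 426 nt), the third by FPKM, had 198 and 227 FPKM at 24 h and 186 and 103 FPKM at 48 h. The HG library at 48 h was again the lowest. NONRATT001904.2 (chromosome 1, 278701730 to 279098708, 2786 nt), with the longest span, 396979 bases, varied little, with 13.9 and 14.5 CPM at 24 h and 14.3 and 16.2 CPM at 48 h.

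The steadiest transcripts, looked for at mean counts of 200 and above, differed by less than 10% between libraries. NONRATT010673.2 (chromosome 15, 103160929 to 103174721, 4572 nt) had 120 and 111 CPM in NG and HG at 24 h and 121 and 113 CPM at 48 h. NONRATT015364.2 (chromosome 2, 178360031 to 178362967, 1889 nt) had 238 and 312 reads at 24 h and 273 and 270 at 48 h. In CPM the highest library of each stood 1.09-fold above the lowest. No direction with glucose or time can be read from differences of this size with 1 library per group.

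**Figure D2:**
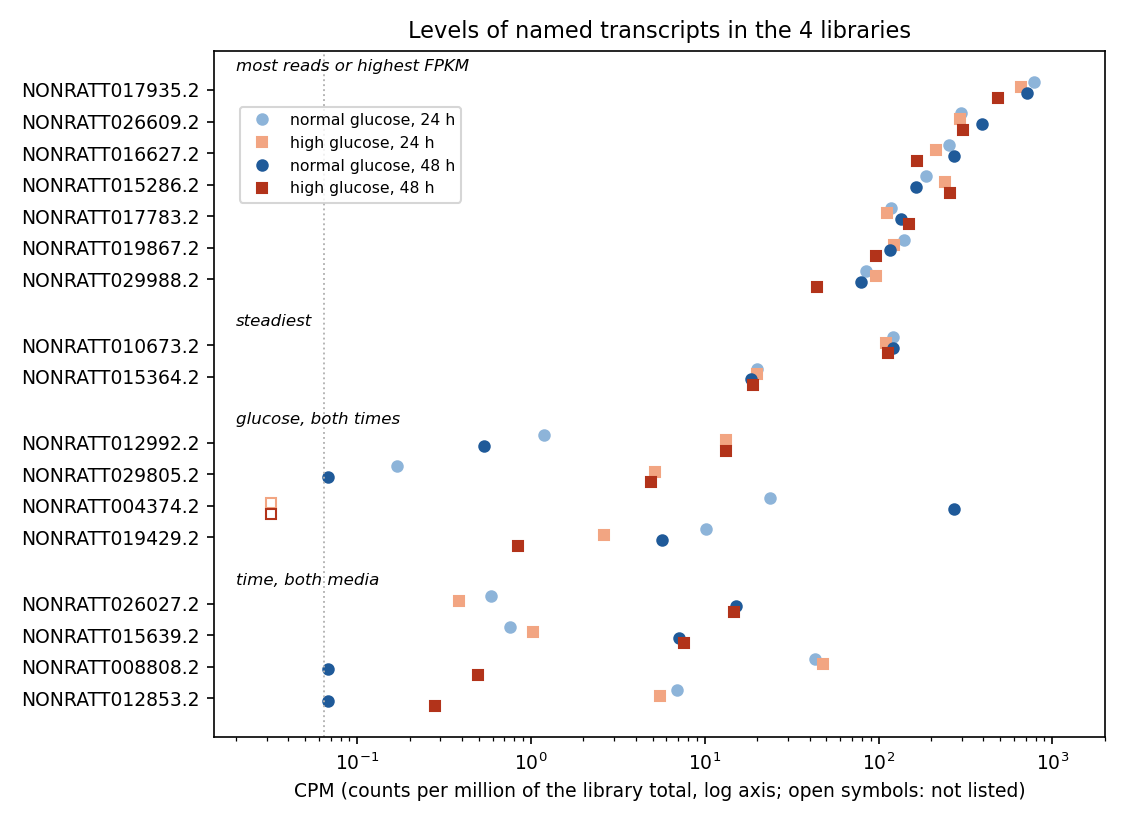
CPM on a log axis in each of the 4 libraries (circles for NG and squares for HG, pale for 24 h and dark for 48 h) for transcripts named by reads or FPKM, by steadiness, and by their ratios with glucose and with time. Open squares mark libraries in which NONRATT004374.2 was not listed, drawn below the dotted line at the smallest level 1 read can have. The abundant and steady transcripts differ little between libraries beside the others, for which libraries differ by over 10-fold in most cases.

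The first comparison asked which of these transcripts differed between high and NG after 24 h. Ratios were taken on log2 (CPM + 1), a scale that shrinks the ratios of transcripts with few reads. On it 42 of the 1765 were at least 2-fold higher in HG (2.38%), where 2.34% of all measured transcripts were. 45 were at least 2-fold lower (2.55%), where 2.55% of all measured were. The median log2 ratio of the set was -0.03. The shares of the lone spliced transcripts were thus near those of measured transcripts in general.

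NONRATT026953.2 (chromosome 7, 97915282 to 97937740, 1927 nt) led the higher ones. It had 3 reads in NG and 184 in HG at 24 h, and 7 and 1 at 48 h. Reads were thus plentiful in 1 of the 4 libraries, and its mean passed 1 FPKM through that library alone, with 6.10 FPKM there and 0.0365 to 0.245 FPKM in the others. The level in HG was 46.5-fold that in NG at 24 h (95% counting interval 15.7 to 228), and the choice by mean FPKM favours such a ratio. NONRATT003235.2 (chromosome 1, 199624037 to 199624784, 433 nt) had 21 and 299 reads at 24 h, and 142 and 73 at 48 h. It was 10.8-fold higher in HG at 24 h (6.94 to 17.7) but 1.86-fold lower at 48 h (1.39 to 2.51). Of the lower ones, NONRATT004374.2 is described with the ratios at both times. NONRATT021642.2 (chromosome 4, 125684808 to 125690672, 3843 nt) had 426 and 37 reads at 24 h, and 121 and 159 at 48 h. It was 15.2-fold lower in HG at 24 h (10.8 to 21.8), and at 48 h the 2 media lay between these extremes.

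After 48 h, 54 of the 1765 were at least 2-fold higher in HG (3.06%), where 2.85% of all measured transcripts were. 67 were at least 2-fold lower (3.80%), where 4.32% of all measured were. The median log2 ratio was -0.11, so the balance depends on scaling. With DESeq2's size factors the median of all measured transcripts moved from -0.14 to -0.00, and 63 of the set were higher and 51 lower, so the majority changed side. The share of higher ones among those beyond 2-fold went from 44.6% to 55.3%. The like counts over all measured transcripts with these factors are not given here, so this is no result about the set alone.

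NONRATT009320.2 (chromosome 14, 36750784 to 36755360, 3702 nt) had 307 and 467 reads in NG and HG at 24 h, and 7 and 486 at 48 h. It stood at a like level in 3 libraries and was low in NG at 48 h, where HG was 72.5-fold higher (34.9 to 181). The other leading one, NONRATT012992.2, was higher in HG at both times and is given below with its values. Of the lower ones, NONRATT000073.2 (chromosome 1, 18980346 to 18986547, 394 nt) had 5 reads in each 24 h library, and 273 in NG and 9 in HG at 48 h. It was plentiful in 1 library, with a level 29.0-fold lower in HG (15.1 to 64.2). Its mean FPKM rests mostly on that library, with 46.6 FPKM there and 0.811 to 1.61 in the others. The choice by mean FPKM favours such a ratio. Its nearest listed neighbour, NONRATT000074.2 at 9704 bases, held 6 or 7 reads in every library.

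A comparison of both times asked which differences with glucose recurred. 9 of the 1765 were at least 2-fold higher in HG at both times, where 0.382% of all measured transcripts were, and 10 were at least 2-fold lower at both, where 0.546% of all measured were. 10 passed 2-fold in opposite directions, where 0.929% of all measured did. These are 0.510%, 0.567% and 0.567% of the set. The log2 ratios at the 2 times shared a sign in 51.6% of the transcripts. Across the 1765 transcripts Pearson's r between them was 0.106 and Spearman's rho 0.0388, and the 2 ratios share no library. Over all measured transcripts 54.1% shared a sign, with r of 0.0165 and rho of 0.0804. A ratio at 24 h therefore told little about the ratio at 48 h, in the set and in general. The counting interval of the ratio included 1 for 83.3% of the set at 24 h and 69.6% at 48 h. The part of counting error in this low agreement was not tested.

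**Figure D3:**
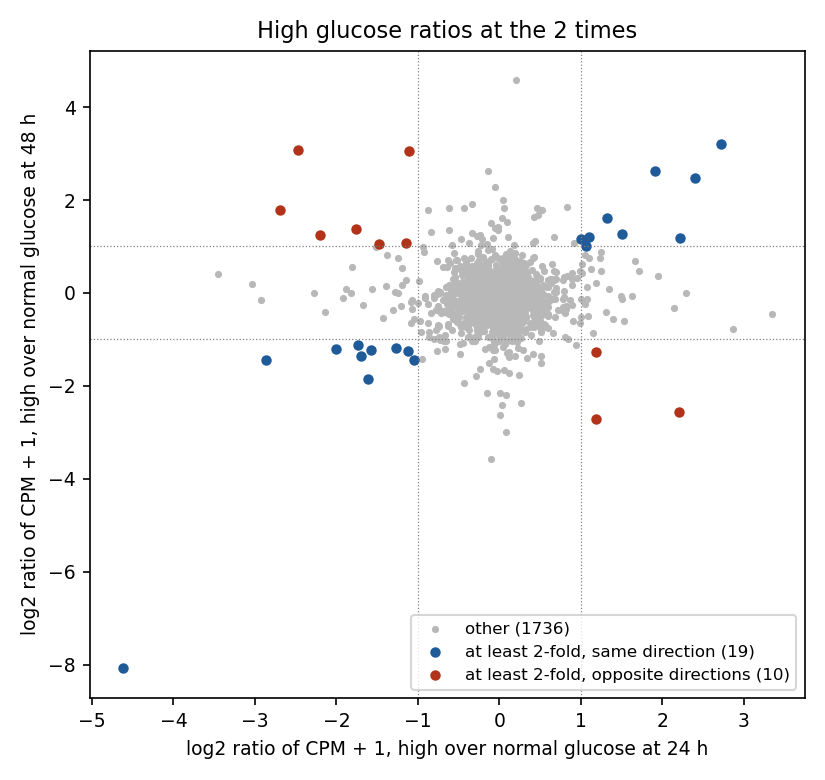
log2 ratio of CPM + 1 in HG over NG at 24 h (x axis) and at 48 h (y axis) for the 1765 spliced lone transcripts, with dotted lines at 2-fold. Blue points passed 2-fold in the same direction at both times (19 transcripts) and red points in opposite directions (10), and the point at the lower left is NONRATT004374.2.

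NONRATT012992.2 (chromosome 17, 55230298 to 55231561, 1179 nt) had 14 reads in NG and 208 in HG at 24 h, and 8 and 188 at 48 h. The HG libraries stood at 13.3 and 13.2 CPM and the NG libraries at 1.18 and 0.539 CPM. In FPKM these were 11.3 and 11.2 in HG and 1.00 and 0.457 in NG. The mean passed the FPKM minimum through the HG libraries, and the choice by mean FPKM favours such ratios. It was 11.3-fold higher in HG at 24 h (95% counting interval 6.57 to 21.0) and 24.5-fold higher at 48 h (12.2 to 57.7). Its nearest listed neighbour, NONRATT012993.2 at 69004 bases, had 42 and 82 reads at 24 h and 72 and 35 at 48 h, which does not follow the medium. The intron bases of NONRATT012992.2 come to 85.

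NONRATT029805.2 (chromosome 9, 16639018 to 16639637, 367 nt) showed the same pattern at lower counts. It had 2 and 81 reads at 24 h, and 1 and 70 at 48 h. Its mean passed 1 FPKM through the HG libraries alone, with 14.1 and 13.4 FPKM there and 0.459 and 0.183 in NG. The choice by mean FPKM favours such ratios. The ratio of HG over NG was 30.7-fold at 24 h (8.24 to 258) and 73.1-fold at 48 h (12.7 to 2928). NONRATT029806.2, listed 932 bases away, had 104 and 152 reads at 24 h and 117 and 76 at 48 h. The neighbour thus held many reads in all 4 libraries.

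NONRATT004374.2 (chromosome 10, 48880225 to 48881896, 718 nt) was listed in NG alone. It had 280 reads in NG at 24 h and 4006 at 48 h, and it was not listed in either HG library. Its mean thus passed the FPKM minimum through the NG libraries alone, and the choice by mean FPKM favours such ratios. A transcript without a row was taken as 0 reads, and whether a filter could have removed the row is not known. Taken as 0 there, and against a floor of 3 counts per library, it was at least 123-fold lower in HG at 24 h and at least 1279-fold lower at 48 h. The 2 NG libraries differed by 11.4-fold themselves (10.1 to 13.0). NONRATT005522.2, listed 596 bases away, had between 4 and 7 reads in every library. NONRATT019429.2 (chromosome 3, 72070386 to 72071866, 607 nt) had 120 and 41 reads at 24 h, and 84 and 12 at 48 h. It was 3.86-fold lower in HG at 24 h (2.69 to 5.64) and 6.70-fold lower at 48 h (3.64 to 13.5), with both HG libraries below both NG ones.

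The fit over both times used edgeR's quasi-likelihood test with terms for medium and time, which leaves 1 residual degree of freedom. Its p-values rest on how far the effects at the 2 times disagree and not on replicates. At an adjusted p under 0.05, 0 of the 1765 were called for glucose, where 0.0137% of all measured transcripts (1 transcript outside the set) were. At an unadjusted p under 0.05 the counts were 33 higher and 58 lower, which together are 5.16% of the set, where 4.75% of all measured were. With 3 libraries the fit cannot keep both terms, so each library was left out in a fit of glucose alone. On all 4 libraries that fit gave 31 upward and 49 downward at an unadjusted p under 0.05, where 4.63% of all measured were. Its median log2 change over the set was -0.0925 on all 4 libraries. That median was -0.226 without HG at 24 h and -0.0490 without HG at 48 h. Without NG at 24 h it was -0.0678, and without NG at 48 h -0.104. DESeq2 called 3 higher and 1 lower at its adjusted p, 0.227% of the set, where 0.314% of all measured were. limma on log2 (FPKM + 1) called 0 of the set and 0% of all measured. Its unadjusted p was under 0.05 for 38 higher and 55 lower, together 5.27% of the set, where 4.90% of all measured were. The fitted log2 change of NONRATT012992.2 was 4.01 with an edgeR adjusted p of 0.335, and over 11 other settings the adjusted p ran from 3.32e-05 to 0.776. For NONRATT029805.2 it was 5.37 with an edgeR adjusted p of 0.243 (5.85e-03 to 0.739). For NONRATT004374.2 the edgeR adjusted p was 0.0766, the smallest of the set (2.86e-06 to 0.913), and its fitted change depends on the prior count, since 2 libraries are at 0. For NONRATT019429.2 the log2 change was -2.31 with an edgeR adjusted p of 0.466 (0.0736 to 1.000).

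The comparison of times asked what differed between 24 h and 48 h of culture in each medium. In NG 25 of the 1765 were at least 2-fold higher at 48 h (1.42%), where 2.02% of all measured transcripts were, and 50 were at least 2-fold lower (2.83%), where 2.65% of all measured were. In HG 47 were at least 2-fold higher (2.66%), where 2.57% of all measured were, and 77 were at least 2-fold lower (4.36%), where 4.34% of all measured were. The median log2 ratio was -0.02 in NG and -0.10 in HG. In both media more transcripts were lower than higher at 48 h, and this held under 3 other scalings (edgeR's TMM factors, DESeq2's size factors, equal sums).

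In NG the leading higher transcripts were NONRATT000073.2, 43.7-fold higher at 48 h (95% counting interval 18.5 to 136), and NONRATT004374.2, both with reads given above. The leading lower one was NONRATT008808.2. It was followed by NONRATT025362.2 (chromosome 6, 135717188 to 135720258, 3012 nt), with 207 and 118 reads in NG and HG at 24 h, no row in NG at 48 h and 104 reads in HG at 48 h. Taken as 0, this was at least 86.3-fold lower at 48 h in NG against 3 counts. It was missing from 1 library of 4, and with 59 intron bases it is among the 14 transcripts with the shortest gap in their span.

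In HG NONRATT008646.2 (chromosome 13, 35494716 to 35503484, 1907 nt) had 6 and 3 reads in NG and HG at 24 h, and 34 and 163 at 48 h. It was 59.8-fold higher at 48 h in HG (20.1 to 293) and 4.53-fold higher in NG (1.88 to 13.2). Both 48 h libraries thus stood above both 24 h libraries. In NG and HG it had 0.265 and 0.101 FPKM at 24 h and 1.20 and 6.01 FPKM at 48 h. Its mean passed the FPKM minimum through the 48 h libraries, which favours such ratios. NONRATT026953.2, the transcript with 184 reads in HG at 24 h, was 167-fold lower at 48 h in the same medium (29.6 to 6640).

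6 of the 1765 were at least 2-fold higher at 48 h in both media, where 0.423% of all measured transcripts were. 13 were at least 2-fold lower in both, where 0.601% of all measured were, and 7 passed 2-fold in opposite directions, where 0.806% of all measured did. As shares of the set these are 0.340%, 0.737% and 0.397%. The time ratios in the 2 media shared a sign in 52.9% of the transcripts, with Pearson's r of 0.127 and Spearman's rho of 0.0458 across 1765 transcripts. Over all measured transcripts 52.2% shared a sign, with r of 0.0497 and rho of 0.0694.

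NONRATT026027.2 (chromosome 7, 116358306 to 116359862, 1059 nt) had 7 reads in NG and 6 in HG at 24 h, and 224 and 210 at 48 h. The libraries of each time agree closely and the times are far apart. Its mean passed 1 FPKM through the 48 h libraries alone, with 14.2 and 13.9 FPKM there and 0.556 and 0.362 at 24 h. The choice by mean FPKM favours such ratios. It was 25.6-fold higher at 48 h in NG (12.2 to 64.4) and 38.5-fold higher in HG (17.4 to 106). NONRATT015639.2 (chromosome 2, 205525187 to 205534214, 365 nt) had 9 and 16 reads at 24 h, and 105 and 108 at 48 h, and was 9.33-fold (4.73 to 21.0) and 7.43-fold (4.37 to 13.5) higher at 48 h in NG and HG. In both transcripts the 2 media lay close together at each time.

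NONRATT008808.2 (chromosome 13, 69908813 to 69917207, 3017 nt) had 510 reads in NG and 752 in HG at 24 h, and 1 and 7 at 48 h. It was 638-fold lower at 48 h in NG (114 to 25243) and 97.6-fold lower in HG (47.1 to 244). NONRATT008312.2, listed 5897 bases away, had 34 and 61 reads at 24 h and 77 and 51 at 48 h, and so was not lower at 48 h in NG. NONRATT012853.2 (chromosome 17, 17971175 to 17984771, 735 nt) had 82 and 86 reads at 24 h, and 1 and 4 at 48 h. It was 103-fold lower in NG (17.9 to 4100) and 19.5-fold lower in HG (7.36 to 73.3). At 48 h in NG and HG, NONRATT008808.2 had 0.0223 and 0.163 FPKM and NONRATT012853.2 had 0.0916 and 0.383 FPKM. The means of both passed the FPKM minimum through the 24 h libraries, which favours such ratios.

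For time, edgeR called 0 of the 1765 at an adjusted p under 0.05, where 0% of all measured transcripts were called. At an unadjusted p under 0.05 the counts were 23 higher and 48 lower, together 4.02% of the set, where 4.25% of all measured were. DESeq2 called 3 higher and 7 lower at its adjusted p, 0.567% of the set, where 0.492% of all measured were. limma called 1 and 1, where 0.164% of all measured were. The smallest edgeR adjusted p of the set was 0.0944, for NONRATT026027.2 with a log2 change of 4.94, and 5 of 11 other settings gave a value under 0.05 (range 3.95e-09 to 0.360). NONRATT008808.2 had a log2 change of -7.46 and an edgeR adjusted p of 0.172, and likewise 5 of 11 settings under 0.05 (9.97e-20 to 0.556). NONRATT015639.2 had 3.03 with an edgeR adjusted p of 0.188 (0.0137 to 0.418) and NONRATT012853.2 had -5.11 with 0.244 (2.03e-03 to 0.687). The calls therefore depended on the tool and on the terms of the fit. With time as the only term, edgeR called 1 higher and 0 lower on all 4 libraries, where 0.150% of all measured were called. In that fit, leaving out the NG library at 48 h gave 2 higher and 6 lower, where 0.806% of all measured were called. Leaving out the HG library at 48 h gave 1 higher and 2 lower, where 0.164% of all measured were. At an unadjusted p under 0.05 the fit of time alone gave 24 upward and 43 downward on all 4 libraries, where 3.40% of all measured were. Its median log2 change over the set was -0.0798 on all 4 libraries. That median was -0.0918 without HG at 24 h and -0.0191 without HG at 48 h. Without NG at 24 h it was -0.0573, and without NG at 48 h -0.207.

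Large differences between libraries were then described without regard to group. Among the 497 transcripts of the set with a mean count of at least 50, the highest library stood a median of 1.54-fold above the lowest, against 1.56 in 666 spliced transcripts with other listed transcripts at their locus and 1.39 in 1593 single-block transcripts. In 29 of the 497 (5.84%) the highest CPM was over 8 times the lowest, where 6.45% of all measured ones with such coverage were. The shares were 7.36% for spliced transcripts with others at their locus and 5.84% for single-block ones. Whether these sets differ was not tested.

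**Figure D4:**
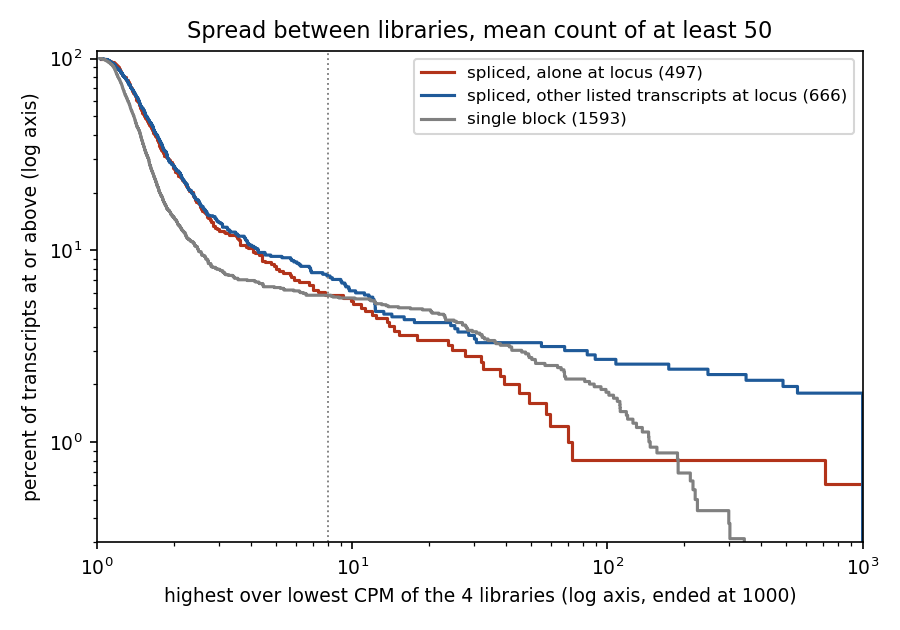
Percent of transcripts (y axis, log scale) whose highest CPM over lowest CPM among the 4 libraries is at or above the value on the x axis (log scale), for those whose mean count is at least 50. The dotted line marks 8-fold, where the spliced lone transcripts and the single-block ones both stand at 5.84%, and ratios with a lowest level of 0 or above 1000 are drawn at the right edge.

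The 29 transcripts followed many patterns. A library was called low for a transcript when it stood below the highest one by more than 8-fold. 20 transcripts were low in 1 library, 7 in 2 libraries and 2 in 3. The single low library was HG at 48 h for 9, HG at 24 h for 4, NG at 48 h for 4 and NG at 24 h for 3. Of the 7 that were low in 2 libraries, 2 were low in both 24 h libraries, 2 in both 48 h libraries, 1 in both NG libraries, and 2 in HG at 24 h with NG at 48 h. Over the 185 measured transcripts past 8-fold at this coverage, 53.5% were low in 1 library, against 69.0% of the 29, and 22.2% were low in HG at 48 h alone, against 31.0%. A transcript low in 1 library by this limit can still be ordered by time or medium. In 16 of the 29 (55.2%) both libraries of 1 time stood above both of the other, and in 5 (17.2%) both libraries of 1 medium stood above both of the other. The remaining 8 followed neither. With 4 distinct levels the higher 2 libraries must be those of 1 time, those of 1 medium or a mix. Every transcript thus falls in 1 of these classes, and such an order also arises where neither time nor medium has an effect. Over the 185 these shares were 40.5% for time and 26.5% for medium. This ordering was counted after the values were seen, and the differences were not tested.

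**Figure D5:**
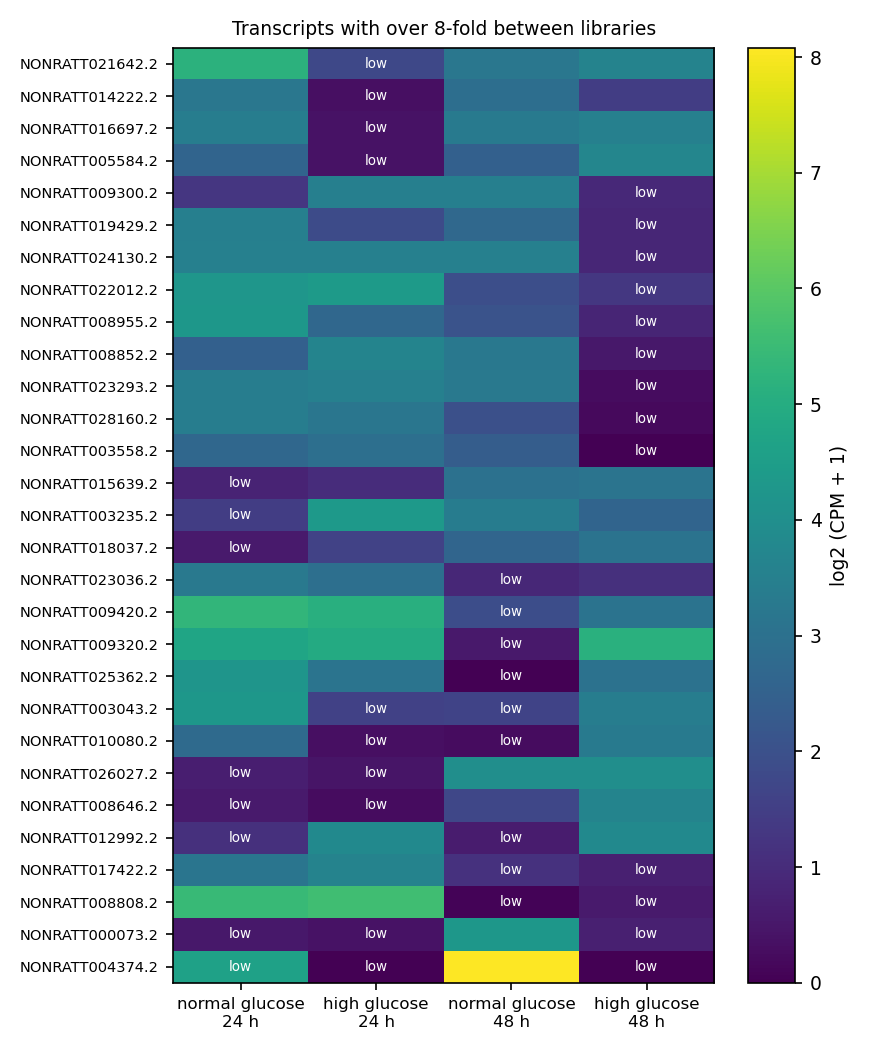
log2 (CPM + 1) in the 4 libraries (columns) of the 29 spliced lone transcripts (rows) with a mean count of at least 50 and a highest CPM over 8 times the lowest. Cells marked low stand over 8-fold below the highest library of the row, and 20 of the 29 rows hold 1 such cell.

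These 29 lay farther from other listed lncRNAs than the other 468 with such coverage. The median distance to the nearest one was 20616 bases against 5792, and 17 of 29 (58.6%) were more than 10 kb away against 190 of 468 (40.6%). Their median length was 1257 nt against 941.5 nt, their median of intron bases 2022 against 3206.5, and their median mean count 91.5 against 115.25 reads. These medians were looked at after the 29 were known, and no test was made. 5 of the 29 had a nearest neighbour with a mean count of at least 50, too few to show how neighbours behave. None of those 5 neighbours passed 8-fold, where 6.45% of all measured transcripts with such coverage did. A neighbour just below that coverage did: NONRATT009419.2 had 32, 76, 74 and 1 reads in NG at 24 h, HG at 24 h, NG at 48 h and HG at 48 h. NONRATT009420.2, which lies 2252 bases from it, had 457, 518, 41 and 106 reads in the same order, so the 2 were lowest in different libraries.

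Nearby transcripts were compared more widely. For 91 of the 1765 the nearest listed transcript lay within 10 kb and both had a mean count of at least 50. Spearman's rho between the log2 ratios of the 2 was 0.298 for glucose at 24 h, 0.140 for glucose at 48 h, 0.0724 for time in NG and 0.220 for time in HG, over 91 pairs that share their libraries. Of the lone transcripts in these pairs, 8, 8, 5 and 10 passed 2-fold in the same order of comparisons. The neighbour passed 2-fold the same way in 0, 0, 2 and 1 of these cases and the other way in 0 cases of each comparison. Over all measured transcripts, at any coverage, 4.89%, 7.17%, 4.67% and 6.91% passed 2-fold in either direction. Whether neighbours change together was not tested, and these cases are too few to show it.

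How often a transcript passed 2-fold varied with its reads. For glucose at 24 h it was 1.19% of the 252 with a mean count under 10, 4.53% of the 1016 from 10 to under 50, 9.88% of the 344 from 50 to under 200, and 2.61% of the 153 with at least 200. Over all measured transcripts these shares were 1.48%, 4.85%, 6.41% and 4.65%. For glucose at 48 h the shares of the set in the same order were 2.38%, 6.10%, 12.2% and 7.19%, and over all measured transcripts 2.15%, 6.71%, 10.1% and 7.08%. Transcripts with few reads seldom pass on this scale because the pseudocount of 1 CPM weighs on them. Over all bands lone spliced transcripts passed less often than spliced ones with others at their locus in all 4 comparisons. For glucose at 24 h it was 4.93% against 6.25%, and for time in HG 7.03% against 9.74%. Within bands the order varied, and under 10 it was mixed. From 10 to under 50 the lone ones were lower in all 4 comparisons. The shares were 4.53% against 5.98%, 6.10% against 8.39%, 3.25% against 5.40% and 6.30% against 8.78%. At a mean count of at least 200, 2.61% of the lone ones and 8.53% of the others passed for glucose at 24 h, and 7.19% and 15.2% for time in HG. All measured transcripts stood at 7.71% and single-block ones at 4.65% for time in HG there. From 50 to under 200 the lone ones were higher in all 4 comparisons, with 9.88% against 7.69%, 12.2% against 11.0%, 9.30% against 8.13% and 13.1% against 12.7%. The shares of lone transcripts at 200 and above rest on 4 and 11 of 153, and no difference was tested.

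The set was also split into 3 classes of near equal size by mean CPM, length, distance to the nearest listed transcript or intron bases. For each of these 4 properties the share beyond 2-fold was highest in the top class in all 4 comparisons, though in some cases by very little. The steepest was mean CPM, with 2.89%, 4.92% and 6.97% for glucose at 24 h and 3.06%, 6.96% and 10.5% for glucose at 48 h. In the lowest class mean CPM ran from 0.245 to 1.12, and there the pseudocount of 1 CPM makes 2-fold hard to reach. By intron bases the shares for glucose at 24 h were 4.41% up to 1149, 4.43% from 1151 to 5321 and 5.94% from 5334 up. In the top class by length the share was 5.77% for glucose at 24 h, but for glucose at 48 h the classes did not rise in order (7.31%, 5.61% and 7.64%). By distance the share for glucose at 24 h was 5.61% in the top class and 5.60% in the middle class, with 33 transcripts in each. Over all measured transcripts 4.89% passed 2-fold for glucose at 24 h and 7.17% at 48 h. The median mean count rose over the classes of mean CPM (10.5, 23.5 and 93.75 reads), length (12.5, 21.375 and 54.75) and intron bases (22, 23 and 26.75). Its part in these shares was not tested.

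The depth limits what can be said of a single transcript. The counting interval of the ratio of HG over NG included 1 for 83.3% of the 1765 at 24 h and for 69.6% at 48 h. For the time ratio it did so for 84.6% in NG and 70.6% in HG. Over all measured transcripts the first 3 shares were 81.5%, 68.0% and 82.6%, and the last was 5126 of 7321 transcripts. For these transcripts a difference was not detectable at this depth.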

How the data were processed

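Strand-specific total RNA libraries of neonatal rat cardiomyocytes were placed in 4 groups by title, 1 library each. TopHat2 2.1.0, Cufflinks and the builds rn6 and Rnor_6.0 are named in the submitters' processing notes. The counting tool and its use of strand were not given in the sources used here. Raw read counts per lncRNA transcript were deposited for transcripts with at least 1 read, and FPKM values were deposited in the same tables, per the file headers. Lengths come with the normal glucose 24 h table. A transcript a table did not list was taken as 0. Positions are those of the tables, without strand, so reads of an antisense partner or of an overlapping protein-coding gene cannot be told apart from a transcript's own. The tables pair identifiers with no gene names, so 2 transcripts per direction are printed for each comparison.

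The members and the rules for naming them were chosen with earlier results of these data known. The rule names the 6 members with the highest mean CPM and 3 with the highest mean FPKM, the longest span, the 2 steadiest with a mean count of at least 200, those nearest 1 FPKM, and for each ratio the 2 highest and 2 lowest with log2 ratios of CPM + 1. For both times or media, members whose ratios agree in sign were put in order of the smaller ratio. Neighbours and members with opposite ratios were named after their values were seen.

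CPM is the count over the library total, which was recovered as the median of count over FPKM and length among counts of at least 20. Folds are ratios of CPM with exact 95% Clopper-Pearson intervals, conditional on the sum of both counts. A fold against 0 is a bound against 3 counts per library. The libraries carry no stated molecular identifiers, so PCR copies cannot be set apart and these intervals and bounds hold for counting error alone. edgeR 4.0.16 (glmQLFit, glmQLFTest, library sizes as recovered) was fitted on the counts of all 7321 measured transcripts, with Benjamini-Hochberg adjustment over all of them. DESeq2 1.42.0 and limma 3.58.1 served as alternatives, with other scalings, pseudocounts and filters and each library left out. Ratios and figures used Python 3.11.15.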

Additional observations from a re-analysis of the deposited data

Results flagged for a closer look

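10 of the spliced lone transcripts (0.567%) passed 2-fold with HG in opposite directions at 24 h and 48 h, where 0.929% of all measured transcripts did. The difference between the times was not tested, since each group holds 1 library. NONRATT003043.2 (chromosome 1, 170652294 to 170653877, 635 nt) had 217 reads in NG and 31 in HG at 24 h, and 31 and 137 at 48 h, with log2 ratios of CPM + 1 of -2.69 and 1.78. NONRATT010080.2 (chromosome 14, 83648401 to 83660792, 2385 nt) had 71 and 4 reads, then 3 and 129, with log2 ratios of -2.47 and 3.07. Both were high in NG at 24 h and in HG at 48 h. NONRATT009300.2 (chromosome 14, 33335611 to 33362193, 871 nt) showed the reverse, with 17 and 160 reads, then 152 and 13, and log2 ratios of 2.21 and -2.55. NONRATT023834.2 (chromosome 5, 164705455 to 164715201, 514 nt) had 2 and 26 reads, then 21 and 0, with log2 ratios of 1.19 and -1.27. NONRATT010080.2 had 2.51 and 0.107 FPKM in NG and HG at 24 h, and 0.0847 and 3.80 FPKM at 48 h. NONRATT023834.2 had 0.328 and 3.23 FPKM at 24 h, and 2.75 and 0 FPKM at 48 h. The means of both passed the FPKM minimum through the libraries where they were high, which favours such ratios.

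The rule for the set asks for a listing in NG at 24 h, and 8 further spliced lone NONCODE transcripts with a mean of at least 1 FPKM lack one. Their reads lie in the other 3 libraries. NONRATT031141.2 (chromosome X, 105351451 to 105359924, 1687 nt) had 367 reads in HG at 24 h and no row in the other 3 tables, so its mean FPKM rests on that library. NONRATT000118.2 (chromosome 1, 30856990 to 30872822, 940 nt) had 175 reads there and no row elsewhere. Since these 8 were picked for lacking a row in NG at 24 h, no ratio to that library is given, and whether a missing row is 0 reads or a filter is not known. NONRATT023324.2 (chromosome 5, 86585114 to 86586746, 1487 nt) was listed in neither 24 h library and had 107 reads in NG and 173 in HG at 48 h. Its nearest neighbour, NONRATT023323.2 at 98 bases, had 174 and 182 reads at 24 h and 141 and 144 at 48 h.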

How the results depend on the processing

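With 1 library per group no replicate spread exists, and with a median of 23.5 reads most single ratios stay within counting error. For the shares beyond 2-fold, the counts of calls and the 8-fold share, 93 values under other settings stayed within their interval or within 1.5 times and 43 moved. Such values cannot change sign. The balance of higher and lower for glucose at 48 h did change side, from 54 and 67 to 61 and 51 with TMM factors or equal sums and to 63 and 51 with DESeq2's size factors. For single transcripts 131 values kept their direction and, for fitted changes, their side of the adjusted p threshold. The 34 that moved were log2 ratios. They kept their sign and changed in size under another pseudocount or with FPKM in place of CPM. A further 19 were fitted changes that kept their direction and newly passed the threshold. The cause was not tested unless the setting itself sets it.

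The percent at least 2-fold higher and lower is given in the order glucose 24 h, glucose 48 h, time in NG and time in HG. A pseudocount of 5 CPM, which weighs on low transcripts, gave 0.397 and 0.623, 0.680 and 0.907, 0.510 and 0.850, and 1.02 and 1.19. Without the FPKM minimum (4697 transcripts) it was 0.915 and 1.13, 1.32 and 1.64, 0.681 and 1.30, and 1.17 and 1.87. A mean count of at least 50 gave 4.23 lower for glucose 24 h, 6.24 lower for glucose 48 h, 2.41 and 5.03 for time in NG, and 4.43 and 6.84 for time in HG. A pseudocount of 0.5 gave 6.40 lower for glucose 48 h, 2.21 higher for time in NG and 7.48 lower for time in HG, and FPKM + 1 gave 2.21 higher and 6.74 lower for the 2 time ratios. At 4-fold in place of 8-fold, 10.3% of the well-covered transcripts passed. The like shares over all measured transcripts are not given under these settings or the other scalings. A change particular to the set therefore cannot be read from these values.

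At an adjusted p under 0.05 DESeq2 called 3 higher and 1 lower for glucose and 3 and 7 for time. edgeR without the FPKM minimum called 3 and 2, and 5 and 9, of 21 and 24, and 29 and 42, among all 17934 transcripts. limma called 1 higher and 1 lower for time, and edgeR without a term for medium 1 higher. Leaving out 1 library, in a fit that also drops the other term, gave 0 to 2 higher and 0 to 6 lower for time, and 0 for glucose in each case. The lone library of a group is then assumed to vary like the others. 2 settings were chosen after seeing the data: adding the 8 transcripts not listed in NG at 24 h, and leaving out the 14 with fewer than 70 intron bases. Neither moved any share beyond its interval. The labels pair no replicates, and the main fit compares the media within each time through its time term.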
